A study of Homo sapiens with 21 samples.

Results

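The genes described here are 8 genes of iron storage, iron transport and heme transport: FTH1, FTL, TFRC, SLC11A2, SLC40A1, FLVCR1, FLVCR2 and IREB2. They were chosen by name, 1 row each, from the 58735 rows of the expression table, and all 8 were among the 14686 genes whose mean level over the 21 libraries reached the filter of 0.5 FPKM (fragments per kilobase of gene, relative to the size of the library). RNA was sequenced from MDA-MB-453, a human breast cancer cell line labelled wild type, in 7 groups of 3 libraries. The groups were an untreated control, 10 mM calcium, 10 μM cadmium, 5 μM of the estrogen-related receptor agonist GSK4716, 10 μM of the estrogen-related receptor antagonist diethylstilbestrol (DES), and DES followed after 3 h by calcium (DES+calcium) or by cadmium (DES+cadmium), each for 24 h. The study asked whether the metals act through the estrogen-related receptor ESRRB. Calcium and GSK4716 were given without serum and cadmium in 1% charcoal-stripped serum. The labels give a single control, and a vehicle in it is not stated. Agent, medium and vehicle thus cannot be told apart in any comparison with the control. The study gave DES in ethanol and states no ethanol for the metals. DES and its vehicle therefore cannot be told apart in DES+calcium against calcium or DES+cadmium against cadmium either. The libraries are of 1 cell line and nothing in the labels says that replicates were separate cultures, so p-values measure the spread between these libraries, which may be technical.

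Iron enters most cells bound to transferrin, which is taken up by the transferrin receptor TFRC, and leaves the endosome through the divalent metal transporter SLC11A2. Iron that is not used is stored in ferritin, a shell of heavy (FTH1) and light (FTL) subunits, and SLC40A1 (ferroportin) exports it. FLVCR1 and FLVCR2 are related membrane transporters first described for heme and also known to carry choline. The iron regulatory proteins, ACO1 and IREB2, bind hairpins called iron-responsive elements when iron is low. Binding before the coding sequence blocks translation of ferritin and SLC40A1, and binding after the coding sequence stabilizes the TFRC transcript. RNA levels, which were measured here in bulk, do not report the translational arm, and less RNA per cell cannot be told apart from fewer cells that carry it.

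The elements are shown because their place in the transcript, before or after the coding sequence, differs between these genes. A hairpin was counted where a C was followed by 5 bases, the loop CAGTGN and 5 bases that pair with the first 5, with G-T pairs allowed. At least 1 such hairpin in a UTR was found in 4 of the 8 genes, against 140 of 19701 canonical coding transcripts (0.711%). Each sequence below is 30 bases of the transcript, written 5′ to 3′ as DNA from GENCODE transcripts on GRCh38, with the loop in capitals. FTH1 and FTL each held an element in the 5′ UTR, at chr11:61967573-61967602 (minus strand) and chr19:48965335-48965364 (plus strand). SLC40A1 held an element in the 5′ UTR at chr2:189580660-189580689 (minus strand). TFRC held 4 elements in the 3′ UTR on the minus strand of chromosome 3, at chr3:196050978-196051007, chr3:196050574-196050603, chr3:196050509-196050538 and chr3:196050462-196050491, listed in the order in which the transcript reads them.
FTH1: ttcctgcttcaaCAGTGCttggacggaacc
FTL: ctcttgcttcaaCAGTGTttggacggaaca
SLC40A1: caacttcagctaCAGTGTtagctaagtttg
TFRC element 1: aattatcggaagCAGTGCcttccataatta
TFRC element 2: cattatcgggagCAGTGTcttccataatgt
TFRC element 3: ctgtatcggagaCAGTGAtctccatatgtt
TFRC element 4: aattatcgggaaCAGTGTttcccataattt
In the transcripts of SLC11A2, FLVCR1, FLVCR2 and IREB2 no hairpin of this form was found. The form is strict, and elements with further bulges, such as that known in the 3′ UTR of some SLC11A2 transcripts, are not matched by it.

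The RefSeq promoter table (GRCh38.p14, from 250 bases before to 50 after a gene's start) held 12 promoters of 7 of the 8 genes. It held none of FTH1, which the search therefore does not cover. Searched on both strands, the estrogen-related receptor element TNAAGGTCA was in 0.951% of all 35116 promoters and its core AAGGTCA in 3.92%, and neither was found in these 12. The antioxidant response element core TGACNNNGC was in 13.3% of all promoters and was not found in the 12 either. The metal response element core TGCNCNC, which is in 55.9% of all promoters, was found in promoters of 4 genes, TFRC, SLC40A1, FLVCR2 and IREB2. These are matches of letters in a short window, and no matched letters means only that they are not in it.

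The libraries held 14435925 to 28424805 fragments on genes (median 18314738). The FPKM values as deposited were scaled to between 0.693 and 1.15 times that total, with a mean of 1.12 in the control, 0.995 in DES and 0.862 in DES+cadmium. The luminal markers ERBB2, FOXA1, GATA3, KRT8, KRT18 and EPCAM were present in all 21 libraries, with the lowest value 50.9 FPKM, for EPCAM. FOXA1 and GATA3 were below every control library in the 3 DES libraries and EPCAM was above. With calcium KRT8 was at 447 to 726 FPKM against 146 to 230 in the control, and KRT18 at 393 to 656 against 144 to 215. EPCAM was also above every control library with calcium, and none of these markers was below. With cadmium GATA3 was below every control library and KRT8 above. Of the markers of other cell types, HBB, PTPRC, CD3E, COL1A2, PDGFRB, PECAM1 and CDH5 reached at most 0.218 FPKM, while COL1A1 was at 9.34 to 32.7 FPKM. COL1A1 was at 10.5 to 12 FPKM in the control, 14 to 17.1 with calcium and 12.5 to 32.7 with DES. In the other groups it overlapped the control. HBA1, an erythroid marker, ranged from 0.0567 to 0.652 FPKM over the control libraries and from 1.85 to 3.28 FPKM over those given DES alone. HBA2 was likewise at 0.0748 to 0.22 FPKM in the control and 0.904 to 1.44 with DES, and the macrophage marker CD68 at most at 0.0276 FPKM in the control and at 0.141 to 1.05 with DES. HBA1 was at 0 with calcium and at 1.22 to 3.81 FPKM with DES+calcium, and at 0.177 to 0.593 with cadmium and 2.31 to 3.28 with DES+cadmium. CD68 reached at most 0.184 FPKM with calcium and was at 0.356 to 0.872 with DES+calcium. The part of these markers in the results was not tested. FTH1 exons overlap BEST1 and TFRC exons an unnamed long non-coding gene on the opposite strand, FLVCR2 overlaps FLVCR2-AS1 on the opposite and TTLL5 on the same strand, and the strand setting of the counting is not given in the sources used here.

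The 8 genes covered a wide range of levels, and the groups treated with DES did not overlap the others for SLC40A1, SLC11A2 and IREB2. On the FPKM scale, which is per length, FTH1 had the 12th highest mean of the table (1999 FPKM) and FTL the 47th (668 FPKM). TFRC (83 FPKM) and SLC40A1 (42.4 FPKM) followed, and FLVCR1, SLC11A2, IREB2 and FLVCR2 were at 4.79, 3.72, 2.39 and 1.35 FPKM. Across libraries FLVCR2 varied 13.1-fold and FTH1 11.2-fold between its lowest and highest value, against 2.86-fold for SLC11A2. Even the scarcest, FLVCR2, had 29 to 348 fragments per library, and FTH1 had 25796 to 190211. Fragments assigned to ferritin pseudogenes, whose sequences resemble the parents, came to 0.498 to 1.42% of those of FTH1 (25 rows) and 0.389 to 3.24% of those of FTL (16 rows).

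**Figure D1:**
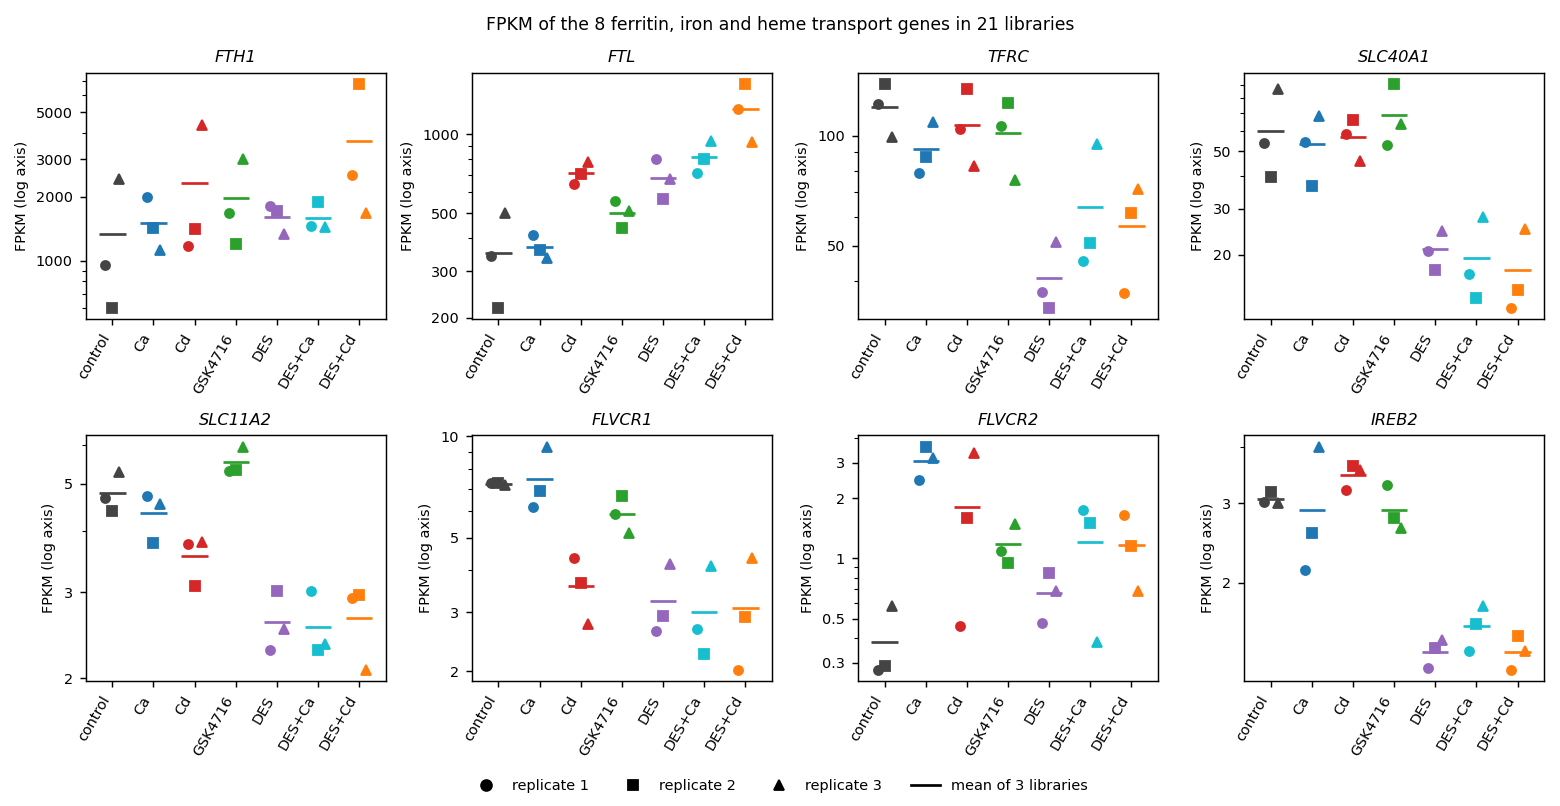
FPKM (log axis, different in each panel) of the 8 genes in the 21 libraries, by group; symbols mark the replicate numbers and lines the means of 3 libraries. All 9 libraries that received DES lie below the other 12 for SLC40A1, SLC11A2 and IREB2, where they reach at most 27.8, 3.02 and 1.77 FPKM.

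Iron storage is described first. FTH1, the ferroxidase subunit of ferritin, was measured at 955, 602 and 2438 FPKM in the control libraries, at 1986, 1422 and 1130 with calcium, at 1175, 1406 and 4353 with cadmium and at 1677, 1196 and 3028 with GSK4716. The DES libraries had 1810, 1707 and 1331 FPKM, the DES+calcium libraries 1458, 1881 and 1446, and the DES+cadmium libraries 2535, 6758 and 1684. The third control, cadmium and GSK4716 libraries and the second DES+cadmium library stood well above the others of their groups, and every group overlapped the next in order of mean. FTH1 passed the test in none of the 10 comparisons, and its intervals were wide. With cadmium the log2 fold change was 0.79 (SE 0.71, 95% interval -0.94 to 2.51, limma adjusted p = 0.5) and with DES 0.52 (SE 0.53, 95% interval -0.73 to 1.77, limma adjusted p = 0.481). Changes of several fold in FTH1 are therefore inside these intervals.

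FTL, the subunit that helps iron to mineralize inside the shell, was steadier. It was at 343, 218 and 498 FPKM in the control, 412, 363 and 338 with calcium, 645, 705 and 782 with cadmium and 558, 440 and 508 with GSK4716. With DES it was at 805, 567 and 671 FPKM, with DES+calcium at 708, 806 and 943 and with DES+cadmium at 1250, 1545 and 929. The cadmium libraries and all libraries with DES lay above the 3 control libraries, and the ordered groups separated only between DES and GSK4716 and between GSK4716 and calcium. FTL rose with DES+calcium relative to calcium by 1.14 on the log2 scale of FPKM + 0.1 (SE 0.20, 2.2-fold, limma adjusted p = 0.00772), and this call held in all 15 alternative settings. Against the control the difference was 1.08 with cadmium (SE 0.32, limma adjusted p = 0.118) and 1.01 with DES (SE 0.34, limma adjusted p = 0.0623), which did not pass the threshold of 0.05 although the libraries did not overlap. The DES difference passed in 3 of 15 alternative settings, among them voom on recovered fragments. The DES+cadmium libraries had 1241 FPKM on average against 681 with DES (log2 difference 0.85, SE 0.38, limma adjusted p = 0.504).

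The ratio of the FPKM of FTH1 to that of FTL was 2.76 to 4.9 in the control, 3.34 to 4.82 with calcium and 2.72 to 5.96 with GSK4716. With DES+calcium the ratio was 1.53 to 2.33, below those ranges, a difference that was not tested. It was 1.98 to 3.01 with DES, 1.82 to 5.57 with cadmium and 1.81 to 4.37 with DES+cadmium. Both genes together took 0.162 to 0.584% of the fragments on genes in the control and up to 1.45% in 1 DES+cadmium library.

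HMOX1, which breaks down heme and releases its iron and is induced by cadmium and oxidants, was high in the same libraries as FTH1 in several groups. It was at 11.6, 5.2 and 349 FPKM in the control libraries, 196, 816 and 2453 with cadmium and 169, 49.7 and 1035 with GSK4716, so the third library was the highest of each of these groups for both genes. In the DES+cadmium group the order differed, with HMOX1 at 740, 318 and 537 FPKM. Against the control, HMOX1 was 4.72 higher on the log2 scale with cadmium, with an SE of 1.72 and 1 of the 3 control libraries at 349 FPKM, and did not pass the test (limma adjusted p = 0.158). Against DES it was 2.00 higher with DES+cadmium (SE 0.44, limma adjusted p = 0.181), with all 3 libraries above those of DES.

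**Figure D2:**
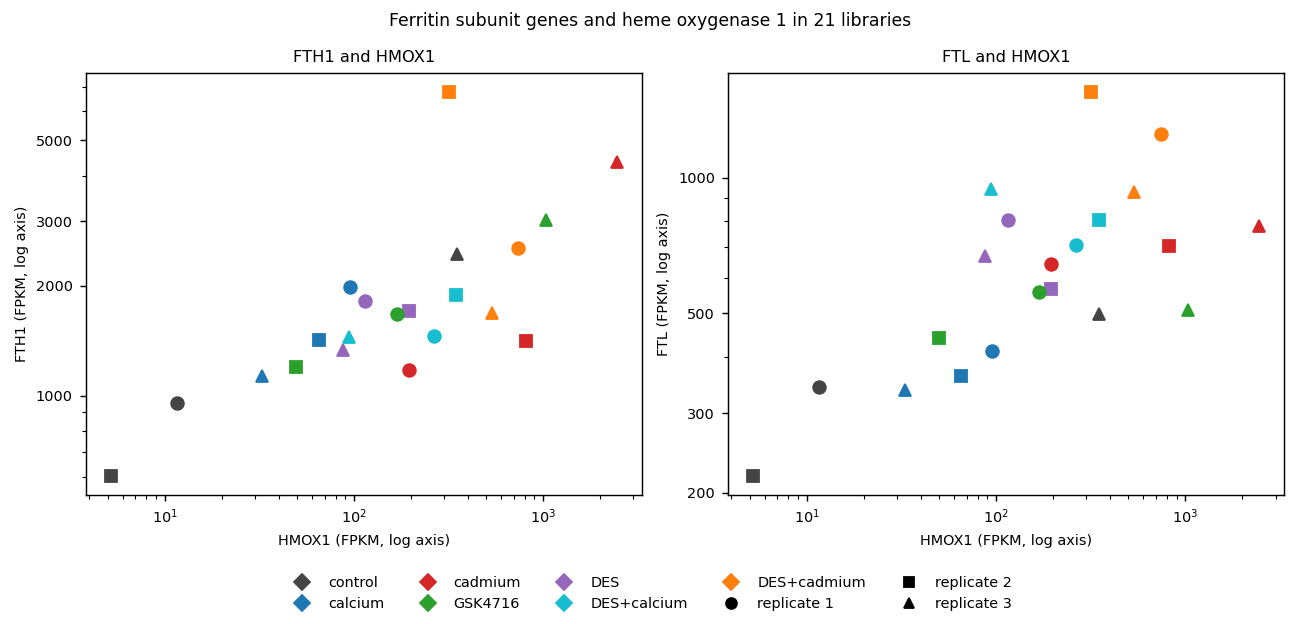
FTH1 (left) and FTL (right) against HMOX1 in the 21 libraries, all in FPKM on log axes, coloured by group, with symbols for the replicate numbers. The third control, GSK4716 and cadmium libraries (triangles) lie to the right and above the others of their groups for FTH1; the highest FTH1 value, 6758 FPKM, is the second DES+cadmium library, where HMOX1 is at 318.

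Of the uptake genes, TFRC fell with DES. It was at 122, 138 and 99.1 FPKM in the control and at 37.3, 33.8 and 51.1 with DES, so the highest DES library was below the lowest control library. The log2 fold change was -1.56 (SE 0.21, 2.95-fold lower, limma adjusted p = 0.0036), and TFRC passed in all 15 alternative settings. With calcium, cadmium and GSK4716 alone TFRC was at 79 to 109, 82.5 to 134 and 75.8 to 123 FPKM, overlapping the control. The addition of a metal after DES gave more scattered libraries, at 45.4, 50.8 and 94.9 FPKM with DES+calcium and 37.1, 61.4 and 71.5 with DES+cadmium. DES+calcium differed from calcium by -0.59 (SE 0.30, limma adjusted p = 0.166), and without the third DES+calcium library, the highest, by -0.92 (limma adjusted p = 0.0216). DES+cadmium differed from cadmium by -0.94 (SE 0.33, limma adjusted p = 0.106). Whether calcium altered the DES effect was tested as an interaction, which was 0.97 (SE 0.38, 95% interval 0.13 to 1.81, limma adjusted p = 0.188).

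SLC11A2, the endosomal iron and divalent metal transporter, was at 4.67, 4.39 and 5.29 FPKM in the control and fell to 2.28, 3.02 and 2.52 with DES (log2 fold change -0.86, SE 0.19, limma adjusted p = 0.0169). It also fell with DES+calcium, at 3.02, 2.28 and 2.35 FPKM against 4.72, 3.79 and 4.54 with calcium (-0.75, SE 0.21, limma adjusted p = 0.0324). Neither call is firm, since the first was lost without any 1 of the control libraries (limma adjusted p = 0.0544 to 0.0753) and the second without any 1 of the calcium libraries (limma adjusted p = 0.0555 to 0.096). Cadmium libraries had 3.77, 3.09 and 3.8 FPKM, below every control library (-0.42, SE 0.17, limma adjusted p = 0.182), and GSK4716 libraries had 5.3, 5.34 and 5.96, just above every control library (0.21, SE 0.12, limma adjusted p = 0.43).

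The iron exporter SLC40A1 was lower wherever DES was given. It was at 53.7, 39.7 and 86.8 FPKM in the control, 54.1, 36.8 and 68.5 with calcium, 58.5, 66.1 and 45.9 with cadmium and 53, 90.4 and 63.4 with GSK4716. With DES it was at 20.7, 17.5 and 24.7 FPKM, with DES+calcium at 16.9, 13.6 and 27.8 and with DES+cadmium at 12.5, 14.6 and 25.1. The lowest library without DES was thus above the highest with DES, and among the 4 groups without DES and among the 3 with it neighbouring groups overlapped. SLC40A1 fell by 1.45 on the log2 scale with DES (SE 0.29, 2.74-fold, limma adjusted p = 0.0124). It fell by 1.47 with DES+calcium against calcium (SE 0.33, limma adjusted p = 0.0164) and by 1.75 with DES+cadmium against cadmium (SE 0.31, 3.37-fold, limma adjusted p = 0.0334). The interactions with calcium (-0.01, SE 0.47, 95% interval -1.05 to 1.02) and cadmium (-0.30, SE 0.46, 95% interval -1.30 to 0.71) did not pass the test (limma adjusted p = 0.991 and 0.766). Leaving out the second DES library gave an adjusted p of 0.0521 in the first comparison. The call against calcium was lost without 4 of the 6 libraries (limma adjusted p up to 0.058), and that against cadmium without 5 of the 6 (up to 0.168), without the filter (0.066) and with the replicate block (0.0671).

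Of the heme transporters, FLVCR1 fell with DES and FLVCR2 rose with calcium. FLVCR1 was at 7.29, 7.27 and 7.17 FPKM in the control, the tightest of its groups, and at 2.64, 2.93 and 4.17 with DES (log2 fold change -1.16, SE 0.21, 2.23-fold lower, limma adjusted p = 0.00828, called in all 15 alternatives). It was at 6.15, 6.88 and 9.33 FPKM with calcium and fell to 2.67, 2.25 and 4.12 with DES+calcium (-1.30, SE 0.28, limma adjusted p = 0.015, and 0.053 without the first DES+calcium library). With cadmium FLVCR1 was at 4.34, 3.66 and 2.77 FPKM, also below every control library. That difference, -1.02 (SE 0.19, 2.02-fold, limma adjusted p = 0.0666), missed the threshold and was past it with voom (0.0392) and with all 7 groups in 1 fit (0.0348). With DES+cadmium it was at 2.02, 2.91 and 4.34 FPKM, overlapping cadmium, and the interaction of cadmium and DES was 0.91 (SE 0.41, 95% interval 0.00 to 1.81, limma adjusted p = 0.267).

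FLVCR2 was at 0.277, 0.289 and 0.579 FPKM in the control and at 2.46, 3.62 and 3.16 with calcium. The log2 fold change was 2.76 (SE 0.32, 6.78-fold, limma adjusted p = 0.0123), and limma adjusted p was 0.0664 and 0.0657 without the first or the second control library. FLVCR2 is on the study's own list of genes raised in these samples by calcium, cadmium and GSK4716 alike. The rise is therefore not independent evidence. The cadmium libraries were spread from 0.459 through 1.59 to 3.36 FPKM (log2 fold change 1.68, SE 0.69, limma adjusted p = 0.191), and GSK4716 libraries were at 1.09, 0.952 and 1.48 FPKM, all above the control (1.44, SE 0.31, limma adjusted p = 0.167). Neither cadmium nor GSK4716 passed the test here, although the study's list, made from read counts, includes FLVCR2 for both. With DES FLVCR2 was at 0.477, 0.848 and 0.688 FPKM. DES+calcium libraries were at 1.74, 1.51 and 0.383 FPKM, all below the calcium libraries (-1.48, SE 0.53, limma adjusted p = 0.0722), and the difference passed in 4 of 14 alternatives, among them voom (adjusted p = 0.0203). The interaction of calcium and DES was -2.19 (SE 0.69, 95% interval -3.69 to -0.68, limma adjusted p = 0.102), the largest in size of the members' interactions, and it did not pass in any of 20 alternatives.

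IREB2, the iron sensor that is removed by proteolysis when iron is plentiful, was at 3.02, 3.18 and 3 FPKM in the control and fell to 1.29, 1.43 and 1.49 with DES (log2 fold change -1.08, SE 0.20, 2.11-fold lower, limma adjusted p = 0.00851, and 0.0512 without the first control library). It was at 3.21, 3.64 and 3.55 FPKM with cadmium and fell to 1.28, 1.52 and 1.41 with DES+cadmium (-1.25, SE 0.27, limma adjusted p = 0.0416), a call that was lost without any 1 of the 6 libraries (limma adjusted p = 0.0511 to 0.189). With calcium it was at 2.13, 2.58 and 4.01 FPKM and with DES+calcium at 1.41, 1.62 and 1.77, which did not overlap (-0.78, SE 0.29, limma adjusted p = 0.081), and the difference passed in 3 of 15 alternatives, among them voom (adjusted p = 0.0347). With GSK4716 it was at 3.3, 2.78 and 2.64 FPKM, around the control.

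**Figure D3:**
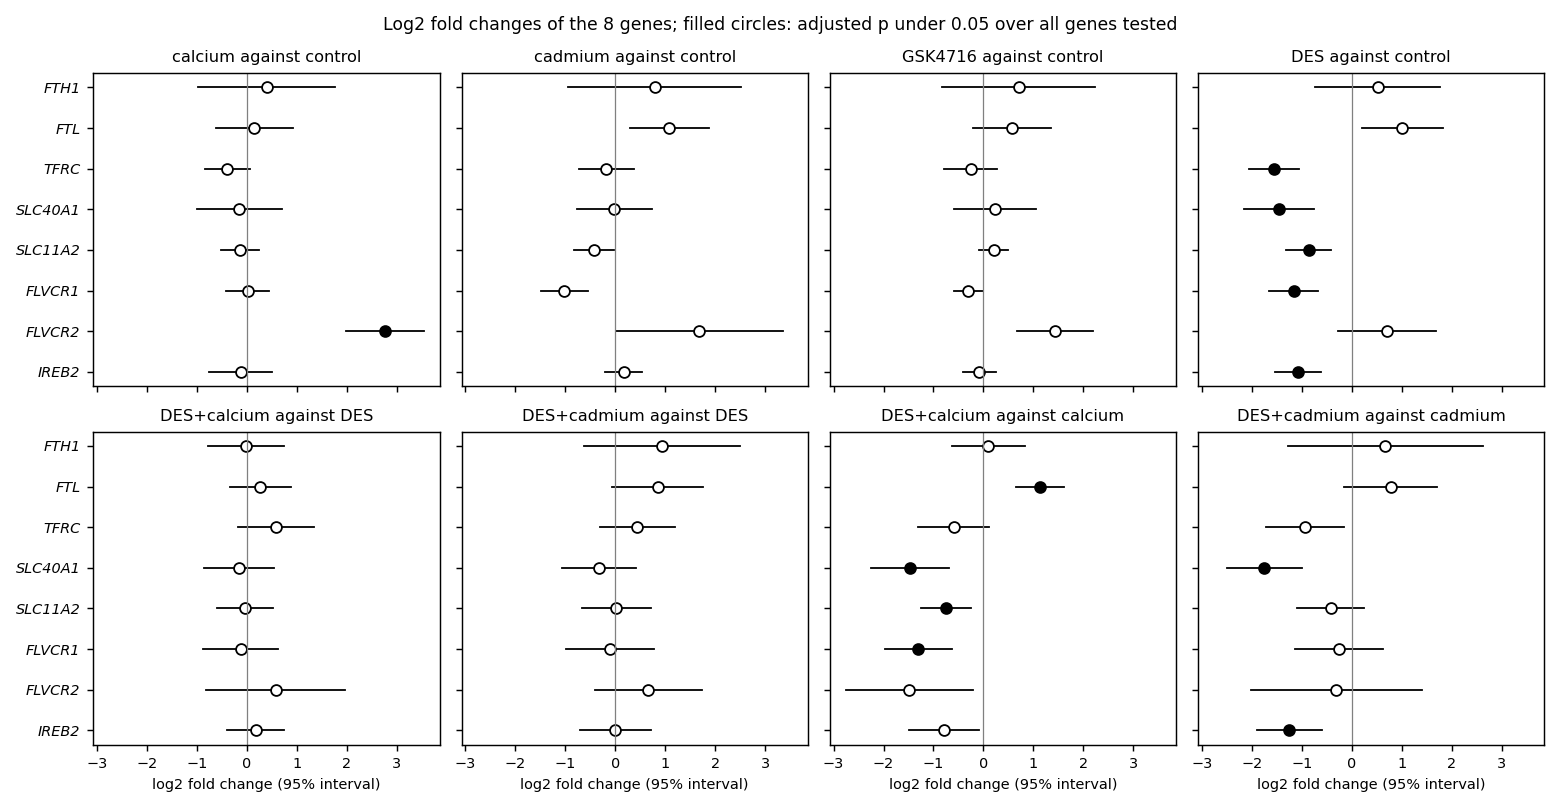
Log2 fold changes (log2 of FPKM + 0.1) of the 8 genes in the 8 pairwise comparisons, with 95% intervals; filled circles have an adjusted p under 0.05 over all 14686 genes tested. The filled circles left of 0 are in the comparisons with and without DES, and those right of 0 are FLVCR2 with calcium (2.76) and FTL with DES+calcium against calcium (1.14).

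By comparison, DES against control had the most members called. TFRC, SLC40A1, SLC11A2, FLVCR1 and IREB2 were lower and none was higher, which is 5 of 8 where 29.6% of all genes tested were called, 12.9% lower and 16.7% higher. The median log2 fold change of the members was -0.97 against 0.05 for all genes, and the libraries did not overlap for 6 of 8 members, FTL being the sixth, against 48.8% of all genes. DES+calcium against calcium called 4 of 8, FTL higher and SLC40A1, SLC11A2 and FLVCR1 lower, where 35.1% of all genes were called, 18.5% higher and 16.5% lower. The members' median there was -0.77 against -0.01, and 6 of 8 did not overlap, against 50.8% of all genes. DES+cadmium against cadmium called SLC40A1 and IREB2 lower, 2 of 8, where 9.89% of all genes were called, 5.13% lower and 4.76% higher, and 5 of 8 did not overlap, against 40% of all genes. These 3 comparisons share no library with each other.

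Calcium against control called FLVCR2 alone, 1 of 8, where 7.12% of all genes were called, 4.6% higher and 2.53% lower, and the members' median was -0.05. Those shares rest on 1046 genes, where limma called 7 genes when the first control library was left out. Cadmium against control called 0 of 8 by limma where 0.15% of all genes were called. At an unadjusted p under 0.05 there were 4 (FTL, SLC11A2, FLVCR1 and FLVCR2) against 25.9% of all genes, voom called 1, and 4 of 8 did not overlap against 34.4%. GSK4716 against control called 0 of 8 by limma, which called 0% of all genes, and 0 of 8 by voom, which called 79 genes in all. Unadjusted p was under 0.05 for FLVCR1 and FLVCR2, against 16.4% of all genes, and 3 of 8 did not overlap against 22.1%.

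A metal added after DES was compared with DES alone. DES+calcium against DES and DES+cadmium against DES called 0 of 8 members each by limma, which called 0.136% and 0.266% of all genes, and 0 of 8 by voom. No member had an unadjusted p under 0.05 in either, against 13.2% and 10.4% of all genes. The widest intervals were those of FTH1 with cadmium (-0.62 to 2.49) and FLVCR2 with calcium (-0.82 to 1.97), so changes of more than 2-fold are inside these intervals. In these comparisons the deviations of libraries of equal replicate number were correlated, though as weakly as 0.103 with DES+calcium. Libraries of unequal replicate number were not compared in this way. With the replicate number as a block limma called 0 of all genes in each, in place of 20 and 39, and again 0 members. The interaction of calcium and DES called 0 of 8 by limma, which called 3.63% of all genes, and 0 of 8 by voom, which called 649 genes in all, and TFRC and FLVCR2 had an unadjusted p under 0.05, against 19.9% of all genes. The interaction of cadmium and DES also called 0 of 8 by limma, which called 1.18% of all genes, and 0 of 8 by voom, with FLVCR1 alone at an unadjusted p under 0.05 (0.049), against 18.5% of all genes.

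In DES against control the difference followed gene length over the whole table, and the members differ in length. In DES against control the median log2 fold change was 0.50 in the shortest of 4 equal classes of the genes tested by length (up to 1795 bases), 0.22 in the next (1796 to 3936 bases), -0.02 in that after it (3937 to 6572 bases) and -0.29 in the longest (from 6574 bases). Genes called lower made up 8.01% of the shortest class and 20.4% of the longest. In DES+calcium against calcium the medians of the 4 classes were 0.27, 0.21, -0.05 and -0.29. In DES+cadmium against cadmium they did not fall in step, at -0.13, 0.23, -0.02 and -0.35. FTL (878 bases) and FTH1 (2030 bases) are short, whereas SLC40A1 (4330 bases), FLVCR1 (6442), TFRC (7887), SLC11A2 (10145) and IREB2 (10806) are long. Mitochondrial genes took 7.7 to 8.19% of fragments in the control and 3.47 to 4.96% in DES. Their share was 4.88 to 7.55% with calcium and 4.34 to 5.17% with DES+calcium, which overlap, and 7.36 to 9.75% with cadmium and 1.97 to 5.31% with DES+cadmium, which do not. The part of this share in the results was not tested. When the length trend of each library was taken out, an alternative chosen after the data were seen, TFRC (-1.35, limma adjusted p = 0.00383), SLC40A1 (-1.48, limma adjusted p = 0.00891), FLVCR1 (-1.04, limma adjusted p = 0.00851) and IREB2 (-0.75, limma adjusted p = 0.0258) were still called lower with DES. SLC11A2 was then at -0.55 and not called (limma adjusted p = 0.0676), and FTL was at 0.58 (limma adjusted p = 0.21). In DES+calcium against calcium FTL (0.79, limma adjusted p = 0.0221), SLC40A1 (-1.50, limma adjusted p = 0.012) and FLVCR1 (-1.18, limma adjusted p = 0.0149) were still called and SLC11A2 was not (-0.46, limma adjusted p = 0.153). In DES+cadmium against cadmium SLC40A1 was still called (-1.77, limma adjusted p = 0.0316) and IREB2 was not (-0.83, limma adjusted p = 0.0934). FLVCR2 (4913 bases) with calcium was 2.78 (limma adjusted p = 0.00546).

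**Figure D4:**
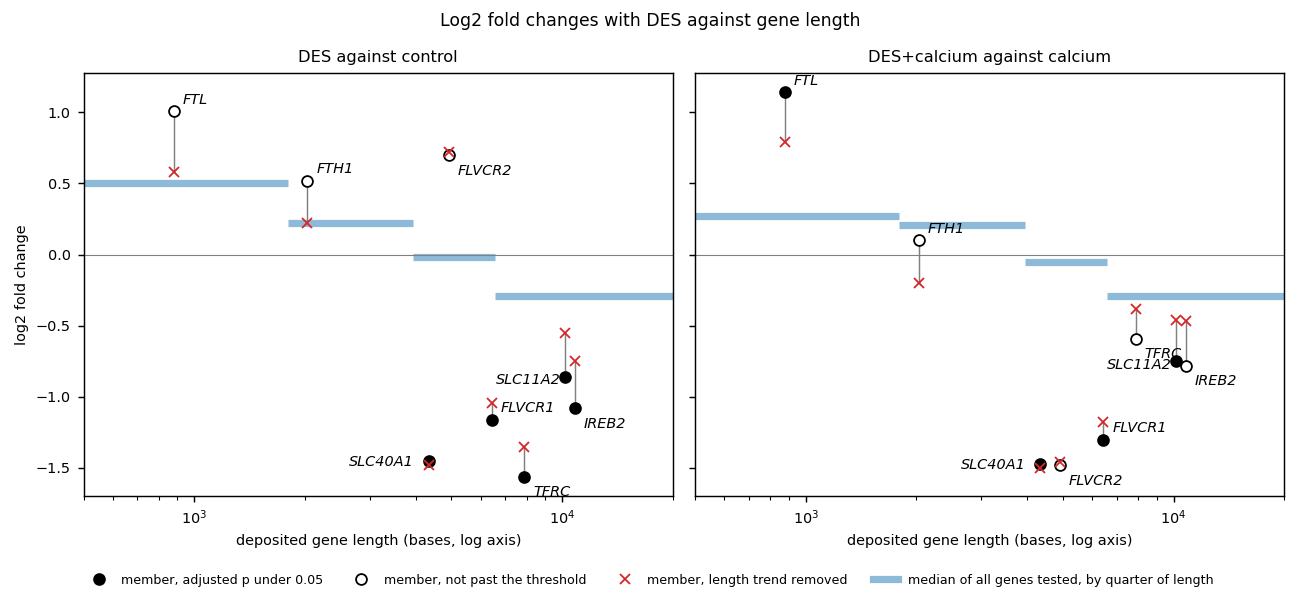
Log2 fold change of the 8 genes (circles, filled where adjusted p is under 0.05) against deposited gene length in bases (log axis), for DES against control and DES+calcium against calcium; bars are medians of all genes tested in each of 4 equal length classes, drawn within the axis, and crosses the members with the length trend removed. The bars step down from 0.50 to -0.29 with DES, and SLC40A1, FLVCR1, TFRC, SLC11A2 and IREB2 lie below the bar of their length there.

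The other iron and heme genes were read from a list of 47, of which 34 were tested. With DES, 3 were called higher and 4 lower, 7 of 34 where 29.6% of all genes were called, with a median of 0.10 against 0.05 for all genes. Those higher were NCOA4, the receptor that carries ferritin to the lysosome (43.1 against 27.9 FPKM, log2 fold change 0.62, SE 0.18, limma adjusted p = 0.0373), PCBP2, an iron chaperone that loads ferritin (0.58, SE 0.15, limma adjusted p = 0.0283), and ISCU, the scaffold of iron-sulfur cluster assembly (0.74, SE 0.17, limma adjusted p = 0.0202). Those lower were SLC46A1, a folate and heme importer (-1.19), HFE, which binds the transferrin receptor (-1.08), and the mitochondrial transporters SLC25A37 (-0.80) and ABCB10 (-0.84), with limma adjusted p of 0.0342, 0.0255, 0.0256 and 0.0205. None of the 8 tested genes of heme synthesis was called with DES, nor HMOX1 (2.17, SE 1.42, limma adjusted p = 0.276) or the sensor ACO1 (0.24, SE 0.28, limma adjusted p = 0.54).

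In DES+calcium against calcium, 6 of the 34 were higher and 3 lower, where 18.5% and 16.5% of all genes were (median 0.25 against -0.01). CYBRD1, which reduces iron for uptake, rose by 1.41 (SE 0.33, limma adjusted p = 0.0183), TFR2 by 1.10 (limma adjusted p = 0.0439), ISCU by 1.07 (limma adjusted p = 0.0104) and SLC39A8, a zinc, iron and cadmium importer, by 1.01 (limma adjusted p = 0.0302). NCOA4 (0.81, limma adjusted p = 0.0289) and the chaperone PCBP1 (0.56, limma adjusted p = 0.029) also rose, and HFE, SLC46A1 and STEAP3 fell by 1.63, 1.49 and 1.12. HMOX1 was 1.80 higher (SE 0.57, limma adjusted p = 0.0503) and ACO1 -0.24 (limma adjusted p = 0.601).

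With calcium alone BLVRA, which turns biliverdin into bilirubin, rose (0.46, SE 0.10, limma adjusted p = 0.0461) and TFR2 (-1.27, SE 0.21, limma adjusted p = 0.0269) and SLC39A8 (-1.16, SE 0.20, limma adjusted p = 0.0281) fell, 3 of the 34 where 7.12% of all genes were called. HMOX1, NCOA4 and ACO1 differed from the control by 1.09, -0.22 and 0.51 with limma adjusted p of 0.732, 0.503 and 0.385. In DES+cadmium against cadmium PCBP2 rose (1.19, limma adjusted p = 0.043) and FECH, which inserts iron to form heme, fell (-1.18, limma adjusted p = 0.0428). These were 2 of the 34, where 9.89% of all genes were called. Both calls were lost without the first cadmium library and with the replicate block, where limma called 0 of all genes. NCOA4, HMOX1 and ACO1 were at 0.60, -0.54 and 0.17 (limma adjusted p = 0.192, 0.708 and 0.791). None of the 34 was called with cadmium or with GSK4716 by limma, where 12 and 4 had an unadjusted p under 0.05, against 25.9% and 16.4% of all genes. NCOA4 differed there by 0.12 and 0.19 and ACO1 by -0.01 and -0.55, with limma adjusted p from 0.396 to 0.977. None was called in DES+calcium or DES+cadmium against DES either, where 0 and 1 had an unadjusted p under 0.05, against 13.2% and 10.4% of all genes. HMOX1 was 2.89 higher with GSK4716 than in the control (SE 1.83, limma adjusted p = 0.478) and 0.71 higher with DES+calcium than with DES (SE 0.54, limma adjusted p = 0.586). NCOA4 and ACO1 differed from DES by -0.03 and 0.03 with DES+calcium and by 0.10 and -0.08 with DES+cadmium, with limma adjusted p from 0.938 to 0.977. The interactions of HMOX1, NCOA4 and ACO1 were -0.38, 0.19 and -0.48 with calcium and -2.72, -0.02 and -0.07 with cadmium, with limma adjusted p from 0.458 to 0.982.

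**Figure D5:**
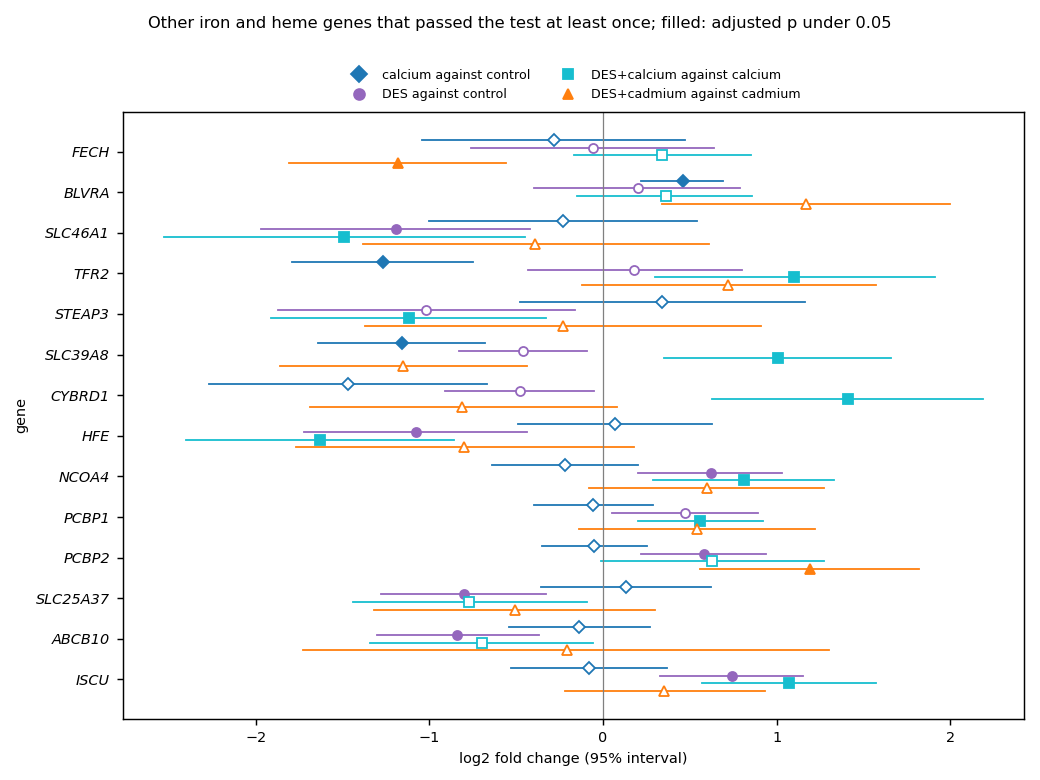
Log2 fold changes with 95% intervals of the 14 other iron and heme genes called in at least 1 of 4 comparisons (symbols and colours), filled where adjusted p is under 0.05. NCOA4, PCBP1, PCBP2 and ISCU lie right of 0 in the 3 comparisons with DES, while SLC39A8 and CYBRD1 lie left of 0 with calcium and right of 0 with DES+calcium against calcium.

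The genes whose log2 levels followed each member most closely over the 21 libraries were sought among 6861 genes with a mean of at least 5 FPKM. Libraries of a group share a treatment, so the coefficients describe the pattern over groups as well as over replicates. For FTH1 they were its pseudogenes FTH1P7 and FTH1P2 (Pearson r = 0.937 and 0.897), which share its sequence. For FTL they were TMEM230 (0.904) and HIST3H2A (0.899), for TFRC FAM111A (0.919) and PPP6R3 (0.913), and for SLC40A1 AMMECR1 (0.941) and DENND6A (0.935). For SLC11A2 they were UHRF1BP1 (0.918) and AGPAT3 (0.909), for FLVCR1 COL4A5 (0.912) and GPC1 (0.892), for FLVCR2 RNF149 (0.886) and OSBPL2 (0.875), and for IREB2 RC3H2 (0.955) and PRR14L (0.954).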

How the data were processed

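The authors aligned reads to GRCh38.p14 and counted them per gene, and deposited FPKM values with gene lengths and coordinates. The submitters' processing notes name HISAT2 2.0.5 and featureCounts 1.5.0-p3. FPKM times length came out as whole multiples of 1 step in each library, so fragments were recovered and used for depth and for an alternative test. Genes with a mean of at least 0.5 FPKM over 21 libraries were fitted as log2(FPKM + 0.1) in limma 3.58.1 (R 4.3.3) with a mean-variance trend, using only the groups compared, two-sided, with Benjamini-Hochberg adjustment over all genes tested and a threshold of 0.05. A fold change on this scale understates that of scarce genes. An exact permutation test of 3 against 3 libraries cannot go below 0.1 and was not used. The fit was tested on simulated data with an equal spread for all genes. These held no length trend and no outlying libraries, so they do not test the fit under those conditions.

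The members and lists were chosen with earlier results of these data known. The text names the members, HMOX1, NCOA4 and ACO1 in every comparison described, and up to 4 further called listed genes with a mean of at least 1 FPKM by size of change; others it names were chosen after their values were seen. Replicate numbers were taken to pair libraries where all 3 correlations of deviations were above 0.1, which held for DES+calcium against DES (0.132, 0.103 and 0.28) and DES+cadmium against DES (0.472, 0.121 and 0.313). Alternatives were other pseudocounts, filters and scalings, all groups in 1 fit, a replicate block, limma-voom, leaving out each library, a fold change of at least 2, and, added after the data were seen, scaling by total fragments and removal of the length trend. Some of the cell type markers are not reported here.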

Additional observations from a re-analysis of the deposited data

Results flagged for a closer look

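Among the other iron and heme genes, the interaction of calcium and DES was called for SLC39A8 and CYBRD1. These are 2 of the 34 tested, from a list chosen with earlier results known, where 3.63% of all genes were called. SLC39A8 was at 6.42, 6.03 and 6.98 FPKM in the control and 2.29, 2.79 and 3.58 with calcium, but at 4.55, 4.46 and 5.02 with DES and 6.03, 4.34 and 7.46 with DES+calcium, an interaction of 1.47 on the log2 scale (SE 0.31, limma adjusted p = 0.0295). It passed in 12 of 21 alternatives, with an adjusted p from 0.0162 to 0.0742, and in 4 of the 12 that leave out a library. CYBRD1 was at 14.5, 15.3 and 15.3 FPKM in the control, 5.89, 3.22 and 8.15 with calcium, 13.6, 10.2 and 9 with DES and 15.4, 13.7 and 14.3 with DES+calcium, an interaction of 1.89 (SE 0.39, limma adjusted p = 0.027). It passed in 13 of 21 alternatives, with an adjusted p from 0.0116 to 0.0731, and in 5 of the 12 that leave out a library.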

How the results depend on the processing

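Of the 80 member values (8 genes in 10 comparisons), 46 exceeded their SE, and over 718 alternative values of these 663 kept direction and side of the threshold, 37 lost the call, 18 gained it and 0 reversed. The other 34 were smaller than their SE, and 24 changed sign in at least 1 setting. The number of members called moved as follows. Calcium against control had 1, and 0 with a mean of at least 2 FPKM, where FLVCR2 was not tested; leaving out a library gave 0 to 1. Cadmium against control had 0, 2 with all 7 groups in 1 fit and 1 with limma-voom, and 0 to 2 when a library was left out. DES against control had 5, 6 with limma-voom and with all groups in 1 fit, where FTL was added, 4 with the length trend removed and with the replicate block, where SLC11A2 was lost, and 3 to 5 when a library was left out (3 without the first control library). DES+calcium against calcium had 4, 6 with limma-voom, with all groups in 1 fit and with scaling by total fragments, where FLVCR2 and IREB2 were added, and 2 to 4 when a library was left out. DES+cadmium against cadmium had 2, 0 without the filter, 1 with the length trend removed, 4 with all groups in 1 fit, 0 with the replicate block and 0 to 1 when a library was left out. The replicate block also took the call from SLC11A2 with DES (limma adjusted p = 0.0526) and changed no other call. The cause of these moves was not tested. Scaling by total fragments shifted the median log2 fold change of all genes to as low as -0.39 (DES+cadmium against cadmium). Over all genes, limma called 1046 with calcium, 260 with the replicate block, 1582 with limma-voom and 7 to 758 when a library was left out (7 without the first control library). Cadmium against control had 22, 3 with the block, 1026 with all groups in 1 fit and 1 to 1605 when a library was left out, and GSK4716 against control 0, and 79 with limma-voom. DES against control had 4340, 3117 to 4770 over the other settings and 1930 to 5078 when a library was left out. DES+calcium against DES had 20 and DES+cadmium against DES 39, 0 with the block and 166 and 603 with all groups in 1 fit. DES+calcium against calcium had 5148, and 3263 to 4260 when a library was left out. DES+cadmium against cadmium had 1453, 0 with the block, 5459 with all groups in 1 fit and 0 to 1052 when a library was left out. The interactions had 533 and 173, with 180 to 649 and 62 to 802 over the other settings and 181 to 830 and 15 to 410 when a library was left out.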

Other observations

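None of the 34 listed genes tested was called with cadmium against control. The values of 3 genes of heme handling are given here, chosen after they were seen. FECH was at 29.5, 33.9 and 43.7 FPKM with cadmium and 12.3, 10.6 and 22 in the control (log2 difference 1.30, SE 0.30, limma adjusted p = 0.0868). CPOX, an earlier enzyme of heme synthesis, had a mean of 2.16 FPKM with cadmium and 4.94 in the control (-1.17, SE 0.25, limma adjusted p = 0.077). SLC46A1 was at 0.512, 0.32 and 0.45 FPKM against 0.955, 1.21 and 0.95 (-1.12, SE 0.27, limma adjusted p = 0.0885). The cadmium and control libraries did not overlap for these 3 genes, nor for 14 of the 34 listed genes in all (7 higher and 7 lower) and 34.4% of all genes tested.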
